A study of Mus musculus with 12 samples.

Results

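The 9 genes described here, *Dusp1*, *Dusp2*, *Dusp4*, *Dusp5*, *Dusp6*, *Dusp10*, *Spry1*, *Spry2* and *Spry4*, encode dual-specificity phosphatases (DUSPs) and Sprouty proteins that restrain MAP kinase signaling. They were taken by gene symbol from the 49585 genes of the count table, and all 9 were found there once. After low counts were filtered out, 13118 genes were tested, 8 of the 9 among them, and *Spry2* was left out. ERK is the MAP kinase at the end of the cascade from Ras through Raf and MEK, and in T cells it is activated by the T cell antigen receptor (TCR). Active ERK induces DUSP and Sprouty genes, whose products in turn damp the cascade, DUSPs by removing phosphates from the MAP kinases and Sprouty proteins at the level of Ras and Raf. Transcripts of these genes are therefore often read as a record of earlier signaling, although other inputs such as cAMP, calcium and stress also drive several of them.

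RNA-seq was performed on lymph node (LN) T cells of 4 groups of 3 samples each. B6 CD4+ and B6 CD8+ T cells came from C57BL/6 (B6) mice, in which CD4+ T cells are helper and CD8+ T cells cytotoxic. CD8.1 and CD8.2 T cells came from CD8Dual mice (8in4 in the labels), in which CD8α.1 and CD8β, and not CD4, are expressed from an engineered *Cd4* locus, while CD8α.2 comes from an unaltered *Cd8* locus. CD8.1 T cells carry the *Cd4*-encoded CD8 co-receptor and CD8.2 T cells the *Cd8*-encoded one, so that the comparison within CD8Dual mice asks what follows lineage when both kinds of cell have CD8 co-receptors. The labels give all mice as male and 6 to 10 weeks old, whereas the study's reporting form, which covers all its experiments, names both sexes. Cells were sorted as TCRβ+ (antibody H57) and CD62L+, with a CD44- gate named in the study's methods but not in the labels. Each sample was RNA of pooled sorted cells, and the labels do not say whether samples of a group came from separate animals, so that P values measure the spread between these samples.

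Libraries held 18667474 to 37110502 counts each, with CD8.2 replicate 3 the deepest, and this library also had 3.14% of its counts in *Gm42418*, an RNA that collects ribosomal RNA reads and took at most 0.888% in the others. CD8.1 replicate 1 stood apart in another way: without it, the genes called between B6 CD4+ and CD8.1 cells went from 1674 to 2975, and those called in the test of a strain difference from 245 to 1378. Without CD8.2 replicate 3, no lineage call of a member was lost. The labelled cell types were checked by their markers. Levels are given in CPM, counts per 1000000 counts of a library after scaling. *Cd4* was at 968 CPM on average in B6 CD4+ T cells and 0.244 CPM in B6 CD8+ T cells, and 49.7 CPM in CD8.1 against 1.47 CPM in CD8.2 T cells, which carry the altered locus. *Zbtb7b*, which encodes the helper lineage factor ThPOK, was at 159 and 154 CPM in B6 CD4+ and CD8.1 T cells and at 0.930 and 1.90 CPM in B6 CD8+ and CD8.2 T cells. Depth sets a floor of 3 counts, which is 0.0874 to 0.167 CPM depending on the sample, and only *Spry2* and *Spry4* came near it.

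The 8 tested genes fell into 3 patterns. *Dusp1*, *Dusp4*, *Dusp5* and *Spry1* were higher in the helper-lineage cells of both strains, *Dusp2*, *Dusp6* and *Dusp10* passed no test between lineages, and *Spry4* was at very low counts and passed the filter only through its B6 CD8+ samples. *Spry4* is therefore described by its counts and left out of the counts of called members below, which are over the other 7 genes. *Dusp4*, with at least 25 counts in every sample, had a larger lineage difference in CD8Dual than in B6 mice.

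For *Dusp1* and *Dusp5*, the proximal promoter is shown because both held response elements named in studies of immediate early genes. RefSeq promoter sequences on GRCm38.p6 were matched by symbol for 7 of the 9 genes. *Dusp4* and *Spry4* were not matched. The part searched was 250 to 51 bases before the annotated start, 200 bases in all, read 5′ to 3′ on the strand of the gene. Capitals mark the cAMP response element or its core in *Dusp1*, and in *Dusp5* a pair of adjacent CArG boxes (the core of the serum response element) and, at the 3′ end, a cAMP response element core on the opposite strand.

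Dusp1 promoter (chr17:26508523-26508722, minus strand): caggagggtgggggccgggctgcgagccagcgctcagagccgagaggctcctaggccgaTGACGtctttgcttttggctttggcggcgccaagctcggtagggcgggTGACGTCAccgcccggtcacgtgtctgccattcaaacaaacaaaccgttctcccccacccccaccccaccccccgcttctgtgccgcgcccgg
Dusp5 promoter (chr19:53528895-53529094, plus strand): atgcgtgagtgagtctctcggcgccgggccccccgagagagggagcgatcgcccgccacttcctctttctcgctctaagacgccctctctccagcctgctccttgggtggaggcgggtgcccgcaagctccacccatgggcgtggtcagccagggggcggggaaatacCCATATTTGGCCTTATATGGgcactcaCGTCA

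Motifs were searched on both strands. The full cAMP response element TGACGTCA was found in 0.828% of 32851 mouse promoters and, among the 7, in *Dusp1*, at bases -143 to -136 from the start. Its core TGACG, which the full element contains, was found in 12.7% of promoters and in *Dusp1* and *Dusp5*. The CArG box was found in 1.16% of promoters and in *Dusp5*, at bases -82 to -73 and -72 to -63. The AP-1 site TGANTCA (5.57% of promoters) and the ETS-box sequence CCGGAA (8.03%) were found in none of the 7, and the ETS-box core GGAA, found in 89.2% of promoters, in *Dusp2*, *Dusp5*, *Dusp6*, *Spry1* and *Spry2*. These are matches of letters, and binding was not measured. The *Dusp5* stretch lies within an annotated exon of *AC137853.2*, a gene on the opposite strand that was not matched in the count table.

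On GRCm38 with the GENCODE M21 annotation, *Dusp1* lies on chromosome 17 (minus strand, bases 26505590 to 26562128), *Dusp2* on chromosome 2 (plus, 127336159 to 127338376), *Dusp4* on chromosome 8 (plus, 34807297 to 34819894), *Dusp5* on chromosome 19 (plus, 53529109 to 53542431), *Dusp6* on chromosome 10 (plus, 99263231 to 99267489), *Dusp10* on chromosome 1 (plus, 184013302 to 184075636), *Spry1* on chromosome 3 (plus, 37639947 to 37644598), *Spry2* on chromosome 14 (minus, 105891947 to 105896819) and *Spry4* on chromosome 18. The longest coding transcripts of the DUSP genes have 3 exons in *Dusp6* and 4 in the other 5, and encode 318 (*Dusp2*) to 483 (*Dusp10*) amino acids. The Sprouty transcripts have 2 exons each and encode 300 to 315 amino acids. The annotated span of *Dusp1* includes the opposite-strand gene *Ergic1*, counted at 33.5 to 66.4 CPM, and *Dusp10* overlaps the opposite-strand *1700056E22Rik*, counted at 1.43 to 2.84 CPM. Whether strand was used in counting is not given in the sources used here, so that reads from such partners cannot be told apart from those of the member.

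Levels between genes were compared per kilobase, as RPKM (CPM divided by the summed length of annotated exons in kilobases). *Dusp2*, a nuclear phosphatase of activated lymphocytes also called PAC-1, was the highest in every group, at 56.3 to 63.5 RPKM on average. *Dusp5* (a nuclear phosphatase specific for ERK), *Dusp6* (its cytoplasmic counterpart) and *Dusp10* (a phosphatase that prefers JNK and p38) followed. In B6 CD4+ T cells these 3 were at 14.0, 11.1 and 12.3 RPKM, and the samples of *Dusp6* overlapped in level with those of *Dusp5* and with those of *Dusp10*. In B6 CD8+ and CD8.2 T cells *Dusp5* was the lowest of the 3, at 6.13 and 5.63 RPKM against 10.8 to 14.7 RPKM for *Dusp6* and *Dusp10*. *Dusp1* and *Dusp4*, both nuclear MAP kinase phosphatases, were next, and in CD8.1 T cells their samples overlapped, at 4.46 and 4.34 RPKM on average. With the longest transcript as length they did not overlap there, at 5.22 to 7.15 RPKM for *Dusp1* and 3.83 to 4.94 RPKM for *Dusp4*. *Spry1* was at 0.293 RPKM in B6 CD8+ to 1.74 RPKM in CD8.1 T cells, and *Spry2* and *Spry4* were at most 0.152 RPKM on average in any group. Among the tested genes, the mean log2 CPM of *Dusp2* was above that of 90.2% of genes, and that of *Spry4* above 1.85%.

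**Figure D1:**
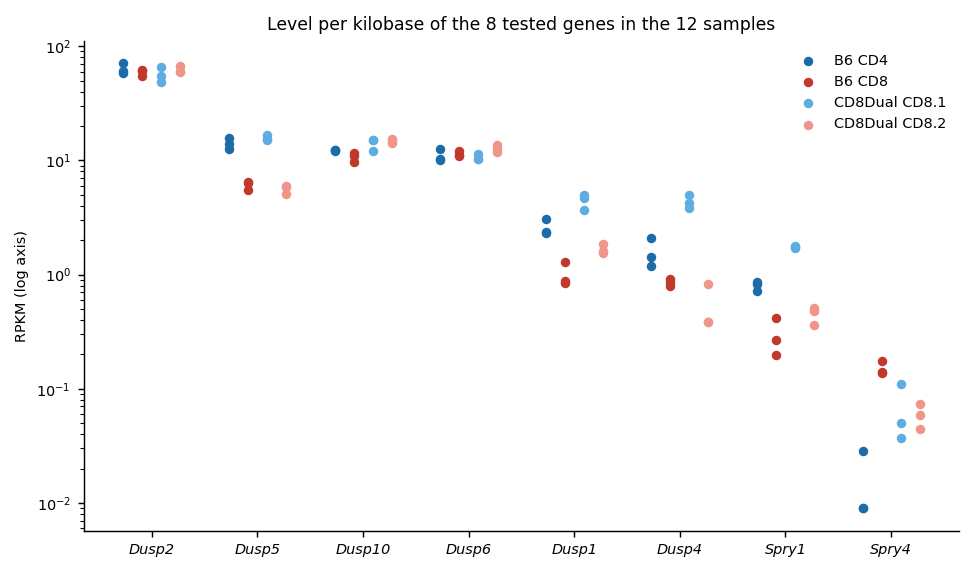
Level per kilobase (RPKM, log axis) of the 8 tested genes, 1 point per sample and 3 samples per group, with the genes along the horizontal axis. *Dusp2* lies highest in all 12 samples, and *Dusp5* is the gene of the middle group that splits by lineage.

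In B6 mice, 4 of the 7 genes were higher and 0 lower in CD4+ than in CD8+ T cells at an adjusted P under 0.05 (edgeR quasi-likelihood test, Benjamini-Hochberg over the 13118 genes). Over all genes 23.1% were called, 11.4% higher and 11.7% lower. The groups did not overlap for 5 of the 7, against 39% of all genes. Within CD8Dual mice, 4 of the 7 were higher and 0 lower in CD8.1 T cells, where 28.7% of all genes were called and 14.9% were higher, and the groups did not overlap for 5 of the 7, against 40.7% of all genes. At the study's limits of a fold change over 5 and an unadjusted P under 0.05, 0 of the 7 passed in B6 and 1, *Dusp4*, in CD8Dual mice, where 3.29% and 3.32% of all genes passed. The median size of the log2 fold change over the 7 genes was 0.88 in B6 and 1.42 in CD8Dual mice, against 0.20 and 0.24 over all genes.

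**Figure D2:**
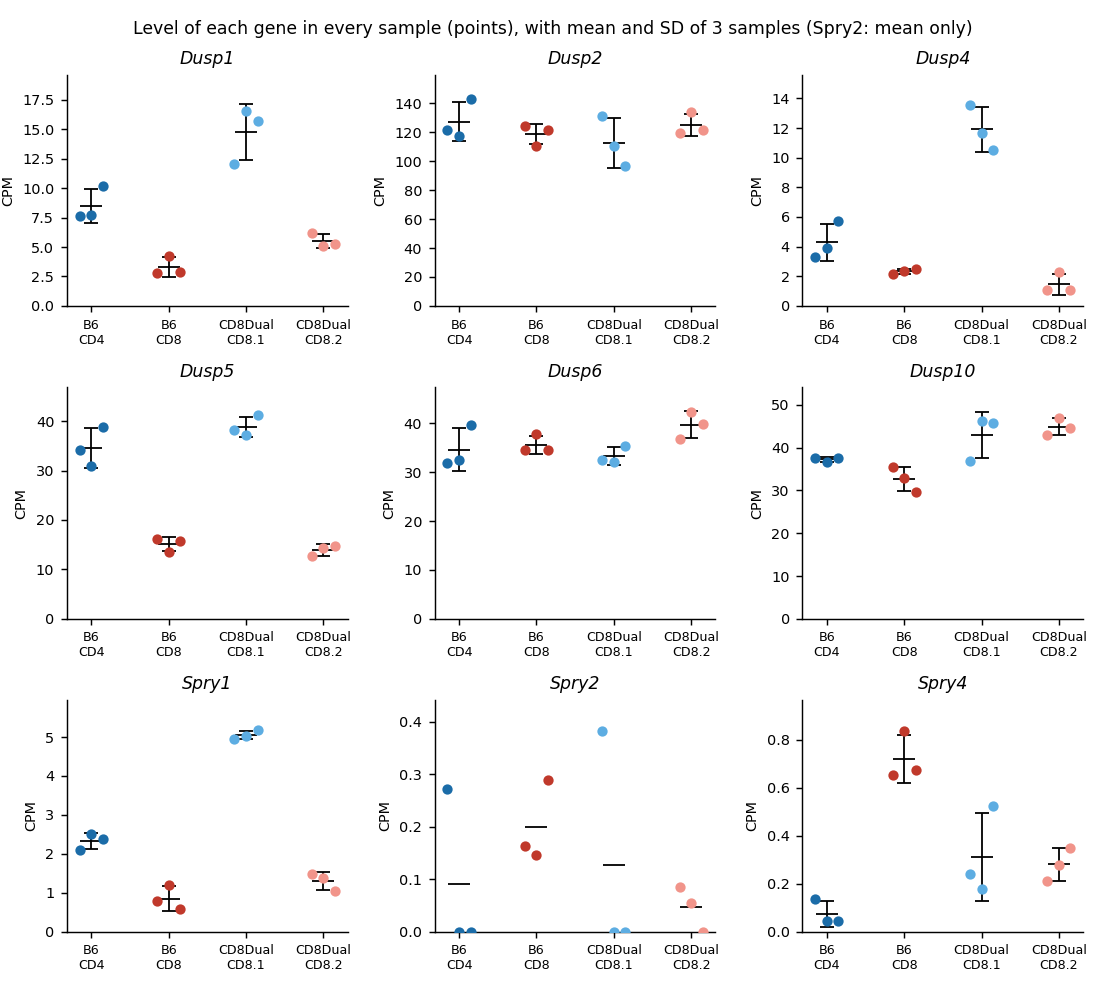
Level of each of the 9 genes in CPM (vertical axes start at 0), with 1 point per sample and black bars for the mean ± SD of the 3 samples of a group, or the mean alone for *Spry2*. *Dusp1*, *Dusp4*, *Dusp5* and *Spry1* are higher in the blue groups (B6 CD4+ and CD8.1) than in the red groups (B6 CD8+ and CD8.2) of the same strain.

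Among the called lineage differences, that of *Dusp5* had the smallest standard error in both strains. It was at 34.2, 30.8 and 38.8 CPM in the B6 CD4+ samples and at 16.1, 13.6 and 15.8 CPM in the B6 CD8+ samples. In CD8Dual mice it was at 38.1, 37.2 and 41.1 CPM in CD8.1 T cells and at 12.6, 14.3 and 14.8 CPM in CD8.2 T cells. Every helper-lineage sample of either strain lay above every cytotoxic-lineage sample. The log2 fold change was 1.19 ± 0.11 (SE, adjusted P = 4.70e-07) in B6 and 1.48 ± 0.11 (adjusted P = 5.09e-08) in CD8Dual mice, a fold change of 2.29 and 2.78. The 2 differences were not told apart (difference 0.28 on the log2 scale, 95% confidence interval -0.03 to 0.60, adjusted P = 0.438), and neither lineage passed the test between strains, with log2 fold changes of 0.17 (CD8.1 against B6 CD4+) and -0.12 (CD8.2 against B6 CD8+).

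*Dusp1*, an immediate early phosphatase (MKP-1) that acts on p38, JNK and ERK, was at 7.59, 7.76 and 10.2 CPM in B6 CD4+ T cells and at 2.78, 4.25 and 2.88 CPM in B6 CD8+ T cells. In CD8Dual mice it was at 12.1, 16.5 and 15.7 CPM in CD8.1 and at 6.17, 5.11 and 5.28 CPM in CD8.2 T cells. The 4 groups did not overlap with one another, in the order CD8.1, B6 CD4+, CD8.2 and B6 CD8+. The lineage difference was nearly equal in size in both strains, with a log2 fold change of 1.35 ± 0.19 (adjusted P = 7.14e-05) in B6 and 1.42 ± 0.18 (adjusted P = 2.88e-05) in CD8Dual mice, and a difference between them of 0.07 (95% confidence interval -0.50 to 0.63, adjusted P = 0.938).

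*Dusp1* was also higher in CD8Dual than in B6 mice within each lineage. The log2 fold change was 0.79 ± 0.18 (adjusted P = 0.00953) in CD8.1 against B6 CD4+ cells and 0.73 ± 0.19 (adjusted P = 0.0335) for CD8.2 against B6 CD8+ T cells. The first call was lost without B6 CD4+ replicate 1 (adjusted P = 0.0508). The second was lost without any one of B6 CD8+ replicates 1 and 3 and CD8.2 replicates 1, 2 and 3 (adjusted P = 0.0693 to 0.140) and with limma-voom (0.0545). These comparisons use the same samples as those between lineages.

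*Spry1*, a Sprouty gene expressed in T cells and induced by TCR signals, was at 2.09, 2.50 and 2.38 CPM in B6 CD4+ and 0.777, 1.20 and 0.577 CPM in B6 CD8+ T cells. In CD8Dual mice it was at 4.96, 5.04 and 5.17 CPM in CD8.1 and 1.49, 1.39 and 1.05 CPM in CD8.2 T cells. Its CD8.1 samples, at 104 to 114 counts, agreed more closely with each other than those of any other group and lay above all others. The lineage difference was 1.42 ± 0.26 on the log2 scale in B6 (adjusted P = 0.000752) and 1.96 ± 0.24 in CD8Dual mice (adjusted P = 1.99e-05), and the test of their difference (0.55, 95% confidence interval -0.22 to 1.31) was not passed (adjusted P = 0.538). CD8.1 T cells were above B6 CD4+ T cells by 1.12 ± 0.23 (adjusted P = 0.00616). For CD8.2 against B6 CD8+ T cells the groups overlapped, and the log2 fold change of 0.57 ± 0.27 did not pass (adjusted P = 0.217).

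*Dusp4*, an inducible nuclear phosphatase (MKP-2) of ERK and JNK, had the largest lineage difference of the tested genes in CD8Dual mice. It was at 3.27, 3.92 and 5.70 CPM in B6 CD4+ and at 2.17, 2.36 and 2.50 CPM in B6 CD8+ T cells, a fold change of 1.84 (log2 0.88 ± 0.26, adjusted P = 0.0235). In CD8Dual mice it was at 13.5, 11.7 and 10.5 CPM in CD8.1 and at 1.06, 2.28 and 1.05 CPM in CD8.2 T cells, a fold change of 8.48 (log2 3.08 ± 0.27, adjusted P = 5.54e-07). All CD8.1 samples were above all other samples, whereas the CD8.2 and B6 CD8+ samples overlapped. The lineage difference was larger in CD8Dual than in B6 mice by 2.21 ± 0.38 on the log2 scale (95% confidence interval 1.40 to 3.01, adjusted P = 0.00423).

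The strain difference of *Dusp4* came with a higher level in CD8.1 than B6 CD4+ cells (log2 fold change 1.47 ± 0.24, adjusted P = 0.00155). The values in CD8.2 and B6 CD8+ T cells, at a log2 fold change of -0.74 ± 0.29, did not pass the test (adjusted P = 0.135), but did without CD8.2 replicate 2 (-1.14, adjusted P = 0.0330) and when no filter was set on low counts (adjusted P = 0.0370). The B6 lineage call of *Dusp4* was lost without B6 CD4+ replicate 3 (adjusted P = 0.129), B6 CD8+ replicate 1 (0.0782) or B6 CD8+ replicate 2 (0.0655), whereas the CD8Dual call and the strain difference were kept without any one sample.

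Over the 7 genes, the strain difference of the lineage change was called for 1, *Dusp4*, against 1.87% of all genes in either direction and 1.58% higher. Between B6 CD4+ and CD8.1 cells 3 of the 7 were called, all higher (*Dusp1*, *Dusp4* and *Spry1*), against 12.8% of all genes in either direction and 6.94% higher. Without CD8.1 replicate 1, 5 were called, the additional ones being *Dusp2* (log2 fold change -0.30, adjusted P = 0.0367) and *Dusp10* (0.30, 0.0160). Between CD8.2 and B6 CD8+ T cells 2 of the 7 were called, both higher (*Dusp1* and *Dusp10*), against 7.94% of all genes in either direction and 3.29% higher.

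**Figure D3:**
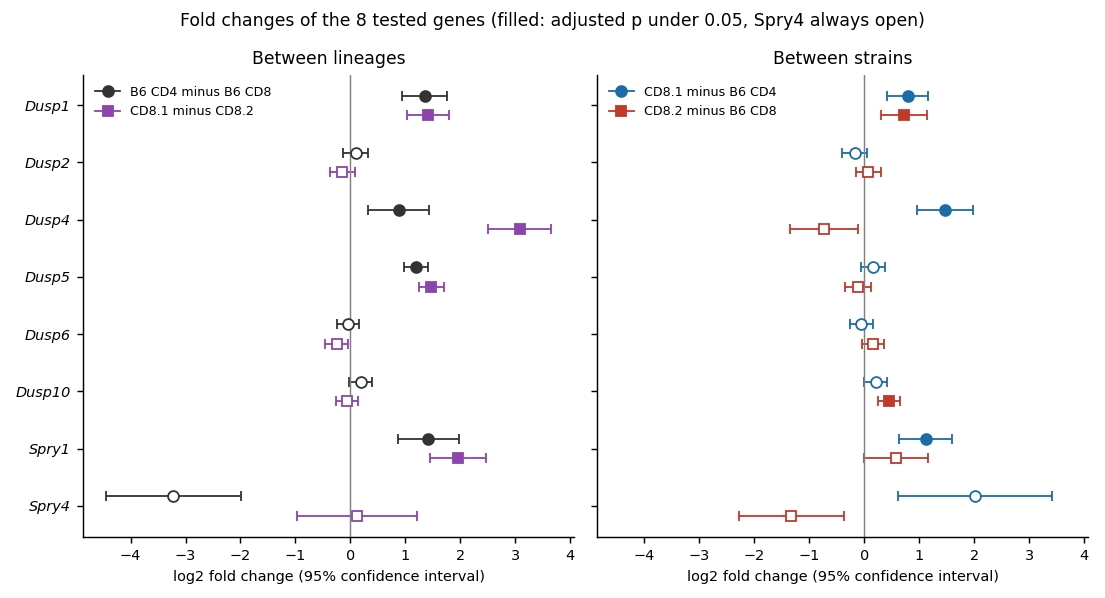
Log2 fold changes of the 8 tested genes with their 95% confidence intervals, between lineages within each strain (left) and between strains within each lineage (right). Filled symbols had an adjusted P under 0.05, and *Spry4* is drawn open throughout because its filter rested on 1 group. The intervals of *Dusp4* in B6 (0.32 to 1.43) and CD8Dual mice (2.51 to 3.66) do not meet, whereas those of *Dusp1* and *Dusp5* overlap.

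*Dusp2*, *Dusp6* and *Dusp10* were abundant enough for narrow intervals and showed no called lineage difference in either strain. *Dusp2* was at 96.6 to 143 CPM over the 12 samples, and its groups overlapped in all 4 comparisons. Its log2 fold change between lineages was 0.10 (95% confidence interval -0.13 to 0.32) in B6 and -0.15 (-0.37 to 0.08) in CD8Dual mice. Without CD8.1 replicate 1, the second was -0.27 and passed (adjusted P = 0.0366).

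*Dusp6*, which encodes the cytoplasmic ERK phosphatase MKP-3 and is a widely used readout of ERK activity, was at 31.9, 32.4 and 39.7 CPM in B6 CD4+ and at 34.7, 37.8 and 34.5 CPM in B6 CD8+ T cells. Its log2 fold change between them was -0.04 (95% confidence interval -0.24 to 0.16). In CD8Dual mice it was at 32.5, 32.2 and 35.5 CPM in CD8.1 T cells, all below the CD8.2 samples at 36.8 to 42.4 CPM, and the log2 fold change of -0.25 (95% confidence interval -0.45 to -0.05) did not pass after adjustment (adjusted P = 0.0641). It passed without B6 CD4+ replicate 3 (adjusted P = 0.0279).

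*Dusp10* was at 37.6, 36.6 and 37.7 CPM in B6 CD4+ and 35.4, 33.0 and 29.7 CPM in B6 CD8+ T cells, groups that did not overlap but did not pass the test (log2 fold change 0.19, adjusted P = 0.192). It was at 36.9, 46.2 and 45.8 CPM in CD8.1 and 43.1, 47.0 and 44.6 CPM in CD8.2 T cells, where the groups overlapped. Between strains, CD8.2 T cells were above B6 CD8+ T cells by 0.45 ± 0.10 on the log2 scale (adjusted P = 0.00999), a call lost without CD8.2 replicate 2 (adjusted P = 0.0511).

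*Spry4* and *Spry2* were at the limit of detection. *Spry4* had 3, 1 and 1 counts in B6 CD4+ and 16, 23 and 14 counts in B6 CD8+ T cells. Without the B6 CD8+ samples it did not pass the filter on low counts, so that a test in which this group is high gives no support, and no P value is given. The ratio of B6 CD8+ to CD4+ T cells was 10.0 from the summed counts (exact 95% interval 4.03 to 32.1, counting error only). In CD8Dual mice *Spry4* had 5, 4 and 11 counts in CD8.1 and 5, 5 and 12 counts in CD8.2 T cells, with a ratio of 1.07 (0.552 to 2.05). *Spry2* had at most 8 counts in a sample, and its 6 counts in B6 CD4+ and its 8 in CD8.1 T cells all came from replicate 1, so that no level can be compared.

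Over the 12 samples, *Dusp1* and *Spry1* followed each other most closely of any pair of tested members (Pearson r of log2 CPM 0.97), and after removal of the group means r was 0.63. All these correlations are descriptions over 12 samples in 4 separate groups, and they share each library's depth and composition. The 3 genes most like *Dusp4* over the 12 samples were *Ikzf2*, which encodes the transcription factor Helios of regulatory T cells (r = 0.96), *Zdhhc2* (0.96) and *Tnfrsf9* (0.96), the TNF receptor 4-1BB. Those most like *Spry1* were *RP23-240G3.2* (0.99), *Nrp1* (0.97), which encodes neuropilin-1 and is also a regulatory T cell marker, and *Itm2c* (0.97). Those most like *Dusp5* were *Tnfrsf25*, *Gata1* and *1110032F04Rik* (each 0.99), and those most like *Dusp1* were *Phyh*, *Spg21* and *Mif4gd* (each 0.98). For *Dusp10* they were *Ssbp2* (0.95), *H2-K1* (0.94) and *Ddrgk1* (0.93), for *Dusp2* *Vamp3* (0.90), *Vhl* (0.89) and *Rabif* (0.89), for *Dusp6* *Pop7* (0.88), *Ttc41* (0.83) and *1110038B12Rik* (0.81), and for *Spry4* *Acsbg1* (0.94), *Gramd1b* (0.93) and *Nrarp* (0.93).

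Markers of regulatory T cells moved with *Dusp4*, *Spry1* and *Dusp1*. *Foxp3*, the lineage factor of regulatory T cells, was at 32.6, 37.7 and 44.5 CPM in B6 CD4+ and 102, 149 and 168 CPM in CD8.1 T cells, and at 0.182 to 0.529 CPM in B6 CD8+ and 0.808 to 1.46 CPM in CD8.2 T cells. Of 11 tested regulatory T cell markers, 10 were higher and 0 lower in CD8.1 than B6 CD4+ cells, and 10 were higher and 1 lower (*Itgae*, which naive CD8+ T cells also express) against CD8.2 T cells. The shares of all genes called were 12.8% (6.94% higher) against B6 CD4+ and 28.7% (14.9% higher) against CD8.2 T cells. The CPM summed over all 12 listed markers was 607 to 692 in CD8.1, 233 to 349 in B6 CD4+, 317 to 348 in B6 CD8+ (mostly *Itgae*, 246 CPM on average) and 174 to 177 in CD8.2 T cells, and *Il10* was at 0 in all B6 CD8+ samples. Of 13 markers of activated or memory T cells, 8 were higher and 0 lower in CD8.1 than B6 CD4+ cells, among them *Cd44* at 71.9 against 35.0 CPM. In B6 CD4+ against CD8+ T cells 3 were higher and 7 lower, and in CD8.1 against CD8.2 T cells 5 and 6. In CD8.2 against B6 CD8+ T cells 0 were higher and 5 lower. In B6 mice 23.1% of all genes were called, and between CD8.2 and B6 CD8+ T cells 7.94%. The summed level of the 13 was 226 to 284 CPM in B6 CD4+, 452 to 514 in CD8.1, 1075 to 1123 in CD8.2 and 1581 to 1953 in B6 CD8+ T cells. In the last 2 groups most of it was *Ly6c2* (406 and 764 CPM on average) and *Il2rb* (316 and 473 CPM). Within CD8.1 T cells, replicate 1 had the least *Foxp3*, the most *Ikzf2* (37.2 CPM, against 22.7 and 21.6 CPM), the most *Dusp4* (13.5 CPM) and the least *Spry1* (4.96 CPM). Since RNA came from whole sorted populations, more cells of a type and more transcript per cell cannot be told apart, and the part of regulatory or activated T cells in the levels of these genes was not tested.

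**Figure D4:**
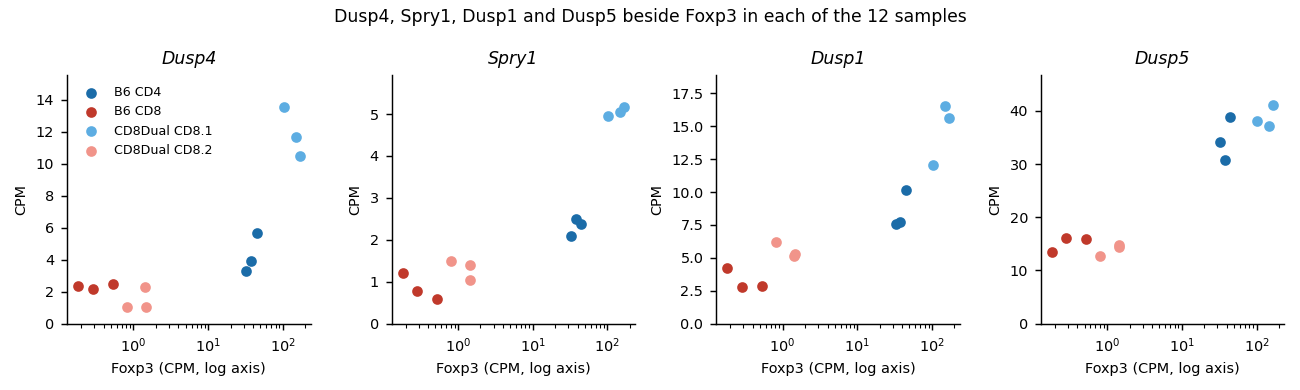
Level of *Dusp4*, *Spry1*, *Dusp1* and *Dusp5* (CPM, vertical axes start at 0) against *Foxp3* (CPM, log axis) in each of the 12 samples, colored by group. CD8.1 samples lie above B6 CD4+ samples on both axes for *Dusp4*, *Spry1* and *Dusp1*, whereas the *Dusp5* levels of these groups overlap.

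Of 9 B cell markers, 4 were higher and 2 lower in B6 CD4+ than CD8+ T cells, and 3 were higher and 0 lower in each of the other comparisons, CD8.1 with CD8.2, CD8.1 with B6 CD4+ and CD8.2 with B6 CD8+ T cells. Over all genes 23.1%, 28.7%, 12.8% and 7.94% were called in these comparisons, in the order named. The B cell markers summed to 568 to 604 CPM in B6 CD4+, 669 to 689 CPM in B6 CD8+, 698 to 852 CPM in CD8.1 and 616 to 724 CPM in CD8.2 T cells. Most of this sum was *Ighm*, at 474 to 580 CPM on average per group. Of 8 tested myeloid and dendritic markers, 4 were higher and 0 lower in CD8.1 than B6 CD4+ cells, the comparison in which *Dusp1*, *Dusp4* and *Spry1* were higher. Of these 8, 1 was higher and 1 lower between lineages in B6 mice, 2 higher and 1 lower in CD8Dual mice, and 1 higher and 1 lower in CD8.2 than B6 CD8+ T cells. All 9 listed summed to 66.5 to 82.3 CPM in B6 CD4+, 81.7 to 85.3 CPM in B6 CD8+, 99.6 to 109 CPM in CD8.1 and 80.9 to 105 CPM in CD8.2 T cells, with *Cd14* at 0 in all B6 CD8+ and all CD8.2 samples. Most of this sum was *Cst3*, at 70.2 to 87.0 CPM on average per group. The part of B cells and myeloid cells in the levels of the members was not tested.

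Of 24 tested genes of the Ras-ERK cascade, which carry the signal from the TCR to ERK and its targets, 5 were higher and 1 lower in B6 CD4+ than in CD8+ T cells, and 4 were higher and 1 lower in CD8.1 than CD8.2 T cells. Over all genes 23.1% were called in B6 and 28.7% in CD8Dual mice, and the list did not stand out from these shares. *Rasgrp1*, the Ras exchange factor downstream of the TCR, was higher in the helper lineage of both strains (log2 fold change 0.48 ± 0.06 in B6 and 0.33 ± 0.06 in CD8Dual mice), as were *Mapk3*, which encodes ERK1 (0.40 and 0.63), and *Rasgrp4* (1.98 and 1.92). *Rps6ka1*, which encodes the ERK target kinase RSK1, was called in CD8Dual mice (0.31) and not in B6 mice (0.13). Its strain difference (0.19) did not pass (adjusted P = 0.531), and none of the 24 genes was called for a strain difference, against 1.87% of all genes. In B6 mice *Sos1* was the gene that was lower (-0.36), and in CD8Dual mice *Nras* (-0.28). The median log2 fold change over the list was 0.05 in B6 and 0.0015 in CD8Dual mice, against -0.0011 and -0.0047 over all genes.

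Of the Ras GTPase activators, which switch Ras off, *Rasa4* was lower in B6 CD4+ than CD8+ T cells (log2 fold change -0.89, adjusted P = 0.0273) and was not called in CD8Dual mice (-0.56). Its strain difference (0.33) did not pass (adjusted P = 0.761). *Rasa2* was lower in CD8.1 than CD8.2 T cells (-0.35, adjusted P = 0.0273). *Dab2ip* had 13, 19 and 1 counts in CD8.1 and 2, 0 and 0 counts in CD8.2 T cells, and the groups overlapped. The ratio of its summed counts, 33 against 2, was 19.3 (exact 95% interval 4.95 to 166, counting error only). *Spred2*, of the Sprouty-related Spred inhibitors of Raf activation, was lower in B6 CD4+ than in B6 CD8+ T cells (-0.40, adjusted P = 0.0379) and was not called in CD8Dual mice (-0.13), and it was the 1 called of 2 tested genes of that list. The strain difference of *Spred2* (0.27) did not pass (adjusted P = 0.560).

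Among 12 tested phosphatases of the same kind that were not in the set, 4 were higher and 2 lower in B6 CD4+ than in CD8+ T cells, and 4 were higher and 3 lower in CD8.1 than CD8.2 T cells. Over all genes 23.1% were called in B6 and 28.7% in CD8Dual mice. These counts include *Ptpn5* and *Dusp14*, which had at most 9 counts in any sample outside the CD8.1 group. The filter, with a minimum count of 10, kept both only through CD8.1 samples, so that their calls give no support. *Ptpn5*, a tyrosine phosphatase of ERK and p38, had 14 counts summed over the B6 CD4+ samples (1, 9 and 4) and 1 over the B6 CD8+ samples (ratio 14.8, exact 95% interval 2.25 to 627, counting error only), and 173 against 2 in CD8Dual mice (101, 27.7 to 844). *Dusp14* had 23 counts against 1 in B6 (24.3, 3.95 to 1003) and 67 against 2 in CD8Dual mice (39.3, 10.5 to 331). *Ptpn7*, the ERK phosphatase of hematopoietic cells, was higher by 0.48 and 0.52 on the log2 scale in B6 and CD8Dual mice. *Dusp16*, a phosphatase that prefers JNK, was lower by -1.22 and -0.66. In the JNK and p38 cascade, 5 of 13 tested genes were higher and 0 lower in B6, and 6 were higher and 0 lower in CD8Dual mice, among them *Mapk11*, which encodes p38β (1.90 and 2.15), *Mapkapk3* (0.48 and 0.58) and *Map2k6* (0.75 and 0.58). *Mapk12*, which encodes p38γ and is 1 of these 6, had 134 counts against 12 in CD8Dual mice (ratio 13.1, exact 95% interval 7.25 to 26.0). In B6 mice it had 23 against 8 (3.04, 1.31 to 7.87). It too had at most 9 counts in any sample outside the CD8.1 group and passed the filter only through that group, so that its call gives no support. No gene of these 2 lists was called for the strain difference, for which 1.87% of all genes were called.

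Of 12 tested ERK-induced transcripts outside the set, 6 were higher and 2 lower in B6 CD4+ than in CD8+ T cells, and 7 were higher and 1 lower in CD8.1 than CD8.2 T cells. Over all genes 23.1% were called in B6 and 28.7% in CD8Dual mice. *Nr4a1*, which encodes Nur77 and is induced by TCR signals, had the largest increase of the list, with 57.7 against 13.0 CPM in B6 (log2 fold change 2.15 ± 0.21) and 63.0 against 13.5 CPM in CD8Dual mice (2.23 ± 0.21). *Egr1* (0.79 and 0.90) and *Egr3* (0.39, not called, and 1.05) lay in the same direction. *Ier3*, an immediate early gene also called IEX-1, was lower in the helper lineage (-4.81, 6 counts against 190, in B6 and -2.03, 24 against 119, in CD8Dual mice). Of 12 tested immediate early and stress genes known to respond to cell isolation, 6 were higher and 0 lower in B6 CD4+ T cells and 5 higher and 1 lower in CD8.1 T cells, among them *Egr1*, *Zfp36* (0.55 and 0.70), *Btg2* (0.63 and 0.47) and *Ier2* (0.48 and 0.35), with *Fos* called in B6 mice (0.92) and not in CD8Dual mice (0.51). No gene of this list or of the ERK-induced transcripts was called for the strain difference, for which 1.87% of all genes were called. The summed level of the immediate early and stress genes was 1131 to 1208 CPM in B6 CD4+, 881 to 939 CPM in B6 CD8+, 1213 to 1416 CPM in CD8.1 and 1103 to 1128 CPM in CD8.2 T cells. These groups did not overlap and stood in the same order as those of *Dusp1*. The largest parts of this sum were *Hsp90aa1* (231 to 333 CPM on average per group) and *Btg2* (187 to 326 CPM). *Fos* and *Jun* went the other way between strains. *Fos* averaged 3.93 CPM in CD8.1 against 8.46 CPM in B6 CD4+ cells, and *Jun* 4.27 against 6.14 CPM. For CD8.2 against B6 CD8+ T cells these genes averaged 2.80 against 4.45 and 3.75 against 5.31 CPM. Of the 12 tested genes, 2 were higher and 1 lower in the first comparison, and 2 higher and 0 lower in the second. The part of cell isolation in the level of *Dusp1*, itself an immediate early gene, was not tested.

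**Figure D5:**
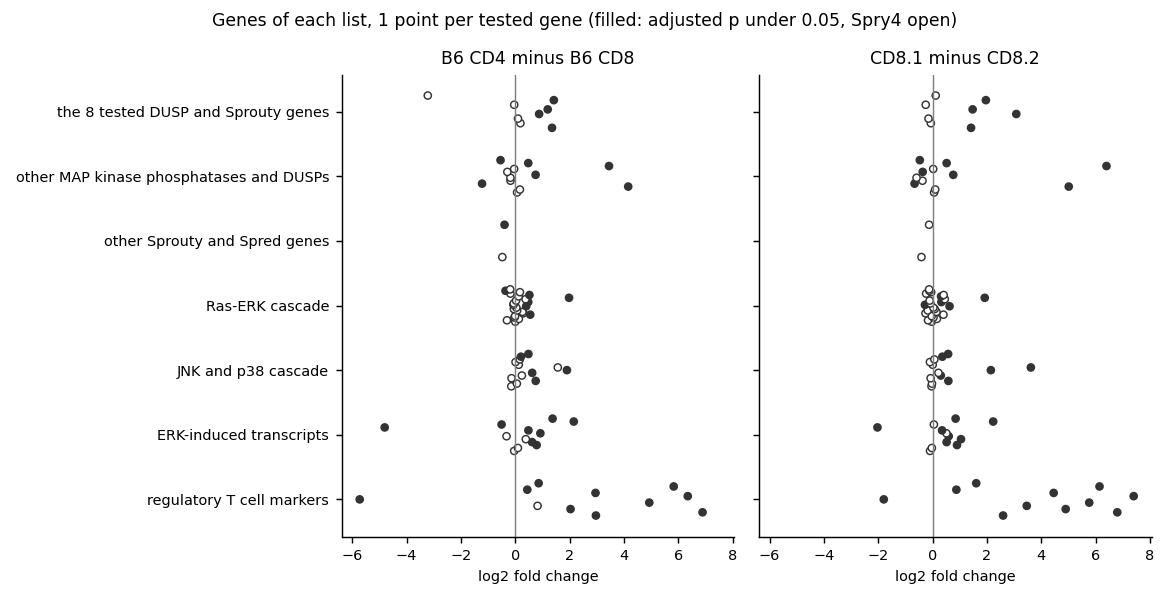
Log2 fold changes between lineages in B6 (left) and CD8Dual mice (right), 1 point per tested gene, for the 8 DUSP and Sprouty genes, for 5 lists of genes around ERK signaling and for the regulatory T cell markers. Filled points had an adjusted P under 0.05, with *Spry4* drawn open. *Ptpn5*, *Dusp14* and *Mapk12* passed the filter on low counts only through CD8.1 samples. Most genes of the Ras-ERK cascade lie near 0, and the regulatory T cell markers spread farthest to the right.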

How the data were processed

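RNA-seq of 12 samples (4 groups of 3) was analysed. The authors prepared total RNA of pooled sorted cells, made libraries with a low-input kit, aligned read pairs to mm10 with STAR and took raw gene counts from RSEM. The submitters' processing notes also name limma. The deposited values are whole-number counts without normalization. Tool versions, annotation release and strand setting are not given in the sources used here. All columns were mapped by name (0 left over).

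Counts were fitted with edgeR 4.0.16 in R 4.3.3 (TMM, filterByExpr with a minimum count of 10, quasi-likelihood F-test), all 12 samples in 1 model with a coefficient per group, and genes with a Benjamini-Hochberg adjusted P under 0.05 over 13118 genes were called. The study names no RNA-seq test beyond an unpaired two-sample test. Standard errors follow from the fold change and the F statistic. CPM uses TMM-scaled library sizes, and correlations use log2 CPM with a prior count of 2. RPKM uses GENCODE M21 exons. Count ratios have exact binomial intervals, which cover counting error only. The script was tested on simulated data. Plots were made in Python 3.11.15 using matplotlib 3.10.9.

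The members and lists were chosen with earlier results of these data known. Named genes are the 9 members, at most 4 genes per pathway list with the smallest adjusted P among those called between lineages, genes whose count is 5 or fewer, and the 3 most correlated genes per tested member. Counts over the Ras GTPase activators are not reported here. *Fos* and the genes of marker lists and of the checks were named after their values were seen.

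Replicates differed by more than sampling noise (chi-square per gene 8.48 to 83.7). Replicate numbers come from the labels. Same-numbered B6 samples deviated together (r = 0.126 to 0.257), same-numbered CD8Dual samples did not in every pair (-0.00388 to 0.119). The fit with a replicate block is given where it changed a call. Alternatives were DESeq2 1.42.0 (size factors, or Wald test), limma-voom 3.58.1, other filters, the study's fold limits, only the groups compared, replicate blocks, each sample left out, raw library sizes and transcript length.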

Additional observations from a re-analysis of the deposited data

Results flagged for a closer look

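The lineage difference was itself different between CD8Dual and B6 mice for *Dusp4*, by the test of the difference in the model over all 12 samples. Its log2 fold change between lineages was larger in CD8Dual mice by 2.21, and it stayed called under each alternative other than the 5-fold limit. For *Spry4* the fitted value was larger by 3.34, from samples of 1 to 23 counts. This gene passed the filter on low counts only through the B6 CD8+ samples, the group in which it was high, so that the fitted value is a description and no test of a strain difference.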

How the results depend on the processing

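Over 40 fold changes of members (8 genes, 5 comparisons) and 811 alternative values, 758 kept both direction and side of the threshold, 35 lost the call, 8 gained one and 10 changed sign, all 10 without a call. *Spry4*, which the filter kept only through its B6 CD8+ samples, is included in these and the following counts of members. By the limits of 5-fold and an unadjusted P under 0.05, the members called numbered 1 in B6, 1 in CD8Dual mice, 0 and 0 between strains and 1 for the strain difference. With limma-voom 1 was called between CD8.2 and B6 CD8+ T cells. For the strain difference 1 was called with a mean of at least 1 CPM, which removes *Spry4* from the test, and 1 with the replicate block set for each strain or common to both. The replicate block changed no other call of a member. When each sample was left out in turn, 2 to 6 members were called between B6 CD4+ and CD8.1 cells, 1 to 2 between CD8.2 and B6 CD8+ T cells and 1 to 2 for the strain difference. Signs changed within these leave-one-out ranges: *Dusp6* in B6 mice (-0.14 to 0.0086, above 0 without B6 CD4+ replicate 1, B6 CD4+ replicate 2 or B6 CD8+ replicate 2) and in CD8.1 against B6 CD4+ cells (-0.12 to 0.028, above 0 without B6 CD4+ replicate 3), *Dusp10* in CD8Dual mice (-0.12 to 0.038, above 0 without CD8.1 replicate 1), *Spry4* in CD8Dual mice (-0.46 to 0.41, below 0 without CD8.1 replicate 3 or CD8.2 replicate 1) and the strain difference of *Dusp1* (-0.18 to 0.20, below 0 without B6 CD4+ replicate 1, B6 CD8+ replicate 2 or CD8.1 replicate 2). The cause was not tested. Over all genes, 684 (only the groups compared) to 2975 were called between B6 CD4+ and CD8.1 cells in place of 1674, 437 (without B6 CD8+ replicate 2) to 2513 (only the groups compared) between CD8.2 and B6 CD8+ T cells in place of 1042, and 167 (without CD8.2 replicate 3) to 1378 (without CD8.1 replicate 1) for the strain difference in place of 245. By the 5-fold limits the counts were 431, 435, 80, 76 and 152. Between lineages, the genes called (5-fold limits aside) numbered 4 to 7 in B6 and 3 to 7 in CD8Dual mice in place of 6 and 7 for the other phosphatases, 3 to 8 and 3 to 10 in place of 6 and 5 for the Ras-ERK cascade and 7 to 10 and 5 to 8 in place of 8 and 8 for ERK-induced transcripts. The 6 and 7 calls of the other phosphatases include *Ptpn5* and *Dusp14*, which the filter kept only through CD8.1 samples. Depth limits *Spry2* and *Spry4*. With the longest transcript as length, *Dusp1* was at 3.68 in place of 2.57 RPKM in B6 CD4+ T cells, which leaves its place in the order of group means, but its CD8.1 samples no longer overlapped those of *Dusp4*.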
